A study of Mus musculus with 24 samples.

Results

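The cytosolic sulfotransferases transfer sulfate to hormones, bile acids, drugs and other small molecules. H3K27ac, the acetylation of lysine 27 on histone H3 that marks active promoters and enhancers, was examined at 9 of their genes (Sult1a1, Sult1b1, Sult1c2, Sult1d1, Sult1e1, Sult2a1, Sult2a2, Sult3a1 and Sult5a1) among 22350 protein-coding genes on the autosomes and X. A peak was assigned to a gene where it overlapped the gene body or the 10 kb on either side of it. The 9 windows together cover 353500 bp. They held 31 of 79862 peaks in the B6 male list, 32 of 82181 in the B6 female list, 34 of 90228 in the CAST male list and 46 of 84645 in the CAST female list. Where values of all lists follow each other below, they are in this order. Coordinates are in the mouse build mm9.

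The livers were from 8-week-old mice of both sexes and of the inbred strains C57BL/6J, here B6, and CAST/EiJ, here CAST, which derives from wild mice of another subspecies. There were 5 livers in each of the 4 groups and 1 input library per group, and H3K27ac was immunoprecipitated with the Abcam antibody ab4729. Each group is represented here by 1 peak list that the authors made from its 5 livers together, so no value has a spread between animals and no difference between sexes or strains could be tested. The groups were taken from the sample titles, because a strain field in the labels gives CAST for every female and B6 for every male.

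Sulfotransferases use the activated sulfate donor PAPS, and sulfation generally makes a compound more water-soluble and, for steroid hormones, inactive. The SULT1 enzymes act mainly on phenols, thyroid hormones, catecholamines and estrogens, the SULT2A enzymes act on hydroxysteroids and bile acids, and Sult3a1 encodes an enzyme that sulfates amines. Several of these genes are known for expression that differs between the sexes in mouse liver, under the control of growth hormone.

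Each gene was compared by the bases that peaks covered in its window and by the height of its peaks. The height is the number of fragments stacked at the summit, which was solved from each peak's deposited enrichment and p-value and divided by the list's background floor, the commonest local background of its peaks (18.4, 18.7, 17.8 and 16.8 fragments). On this scale the median peak of a list stood at 4.58, 4.49, 4.56 and 4.58. Intervals on ratios of heights are 95% exact conditional intervals that cover counting error alone. The tissue label was checked on marker genes. Of 6 hepatocyte genes, 5 had a peak within 1 kb of a start in every list (summed height 60.7 to 77.4). Kupffer cell genes had such a peak at 0 of 4 genes in 3 lists and at 1 of 4 in B6 females (summed height 0 to 2.19), and lymphocyte genes at 1 of 4 in 3 lists and 0 of 4 in CAST females (0 to 3.21). Endothelial genes had one at 3 of 4 in every list, with a summed height higher in CAST (17.5, 17.1, 25.9 and 23.1), and stellate genes at 2 of 4, with one lower in CAST (11.3, 12.9, 9.62 and 8.20). Biliary genes had one at 3 of 4 (15.1 to 19.2). The part of cell composition in the results below was not tested.

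Across the family, the higher totals of the CAST lists lay at Sult3a1. Peaks covered 27502, 25491, 28623 and 31727 bp. The female total was therefore 0.927 times the male total in B6 and 1.11 times in CAST, and the CAST total was 1.04 times the B6 total in males and 1.24 times in females. With peaks of at least 3-fold enrichment alone, the female/male ratio in CAST turned to 0.705. Without Sult3a1 the totals were 26508, 24449, 23571 and 23055 bp, and CAST females then had the lowest value of the 4 lists. Peaks within 2.5 kb of a transcript start of their gene numbered 11 of 31, 15 of 32, 13 of 34 and 15 of 46 in the same order, so the additional peaks of CAST females were mainly distal.

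**Figure D1:**
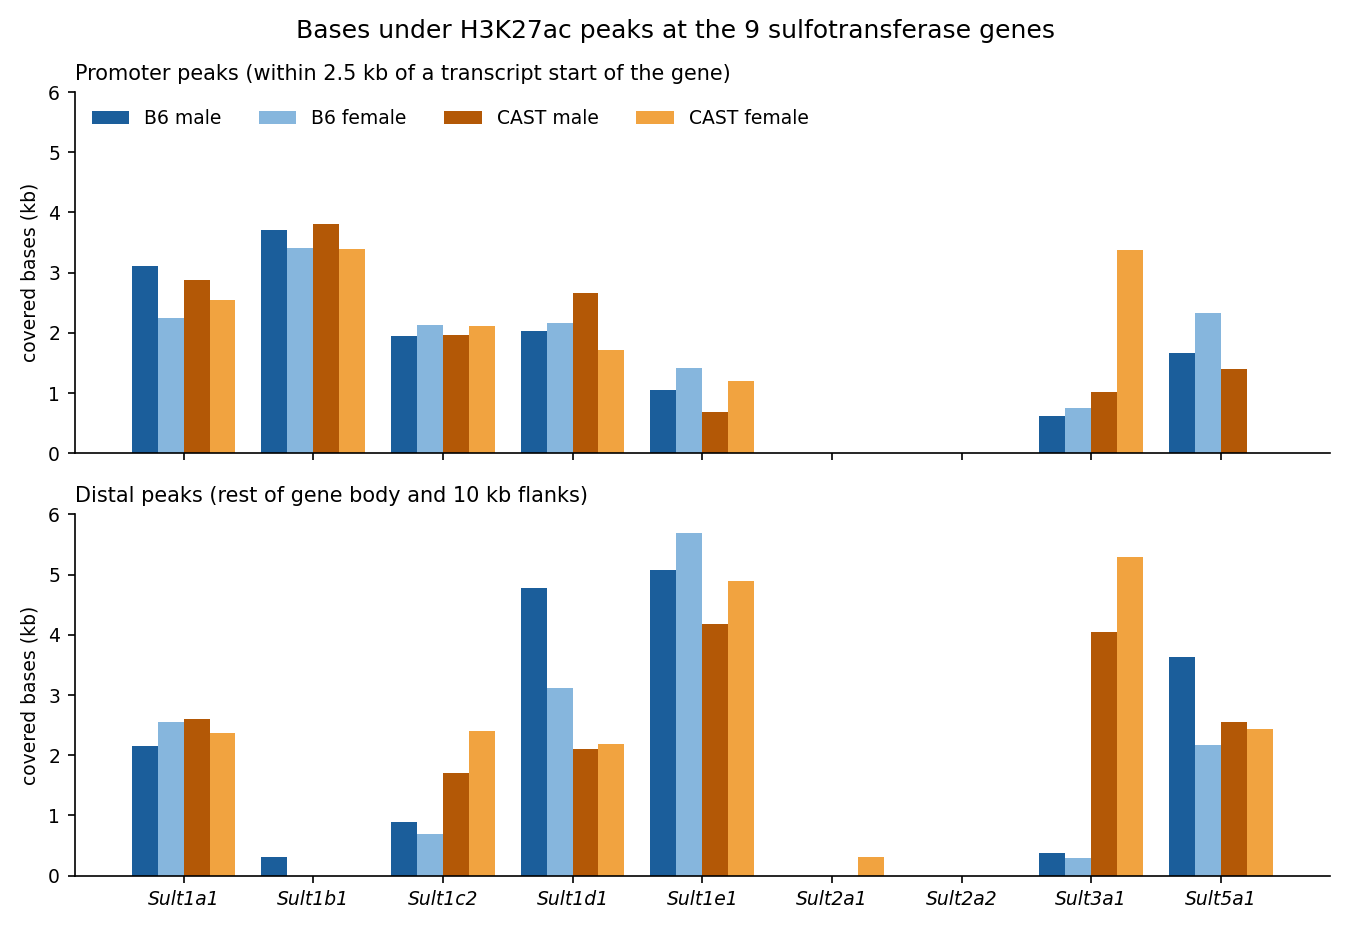
Bases under H3K27ac peaks, in kb, at each of the 9 genes in the 4 pooled lists, with promoter peaks in the upper panel and distal peaks in the lower one. Each bar is 1 list of 5 pooled livers, so there are no error bars. Sult3a1 goes from 994 bp in B6 males to 8672 bp in CAST females over both panels, CAST females had no promoter peak at Sult5a1, and Sult2a2 had no peak in any list.

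A gene was counted as leaning to a list when its window had at least 1.5 times the covered bases of the other list and at least 500 bp more. Between the sexes of B6, 0 of 7 members with a peak leaned to females and 0 of 7 to males, where 3.69% and 4.93% of all protein-coding genes with a peak did so. In CAST, Sult3a1 leaned to females (1 of 8 members, against 1.88% of all genes) and Sult5a1 to males (1 of 8, against 7.98%). Both of these leans were lost with a flank of 25 kb and with fold enrichment of at least 3. Between the strains, Sult3a1 leaned to CAST in males (1 of 7, against 9.86%) and no member to B6 (0 of 7, against 4.76%). Sult5a1 did lean to B6 males without flanks, at a CAST/B6 ratio of 0.439, and Sult1e1 with fold enrichment of at least 3, at 0.501. In females Sult3a1 and Sult1c2 leaned to CAST (2 of 8, against 9.46%) and Sult5a1 to B6 (1 of 8, against 10.0%). The lean of Sult1c2 was lost, at ratios of 1.32 and 1.00, with −log10 q of at least 5 and with fold enrichment of at least 3. Members with no peak in either list of a pair were left out of that pair. The median log2 ratio of covered bases over the 7 members with peaks in both lists was −0.13 for females over males in B6 and −0.15 in CAST, and −0.08 for CAST over B6 in males and near 0 in females. The medians over all genes were −0.04, −0.11, 0.01 and −0.05, so the median member lay close to the median gene. Single members went both ways. For CAST over B6 in females they ran from −0.89 to 3.06, where the 5th and 95th percentiles of all genes were −0.87 and 0.84. Windows of Sult1b1, Sult1d1 and Sult1e1 overlap on chromosome 5, so their counts share some peaks, and those of Sult2a1 and Sult2a2 overlap on chromosome 7 but share no peak.

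**Figure D2:**
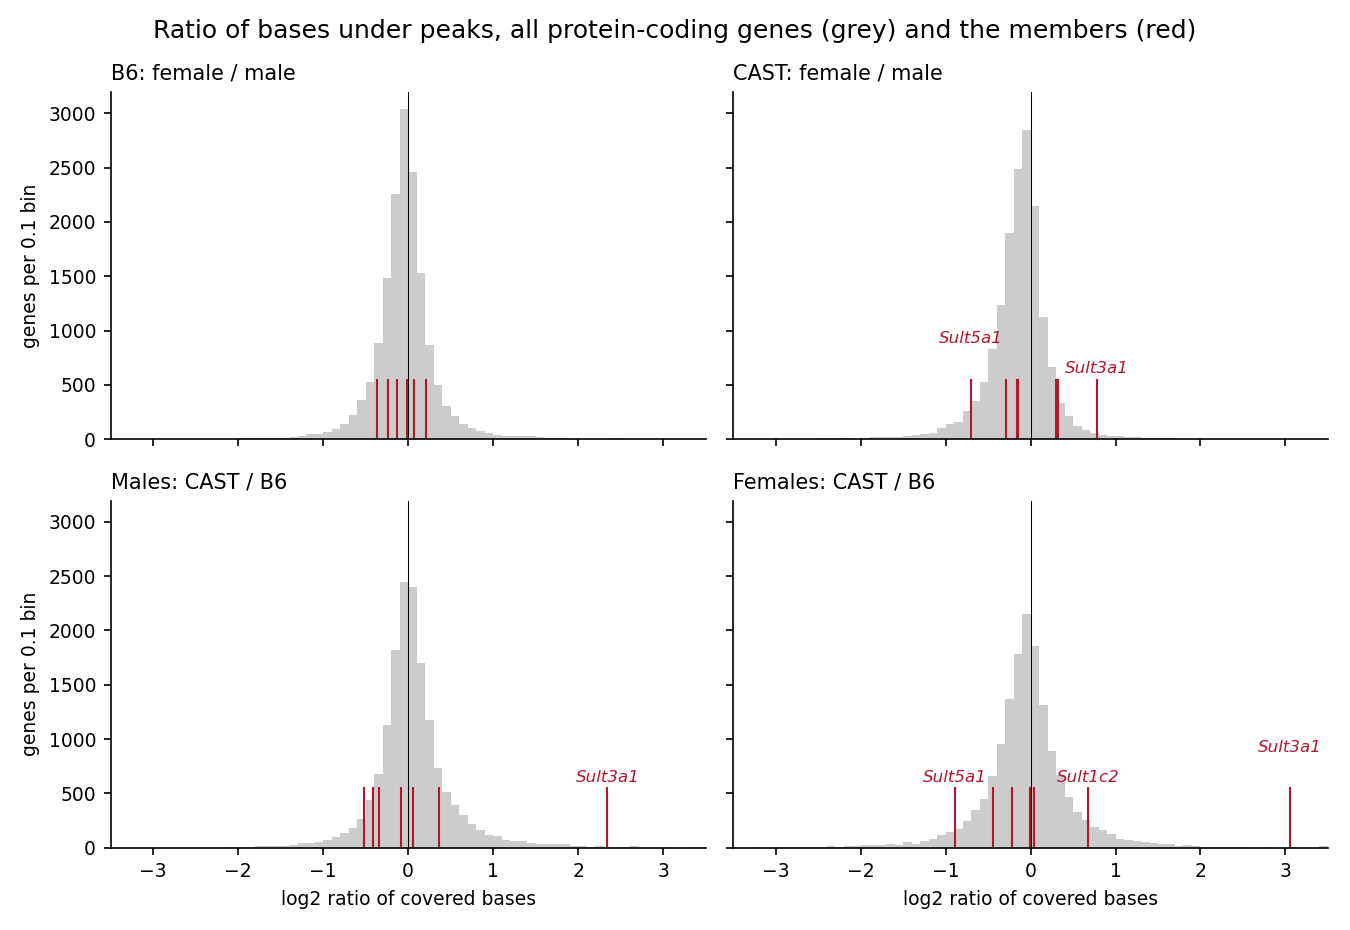
Log2 ratio of covered bases for all protein-coding genes with peaks in both lists of a pair (grey histogram, genes per bin of 0.1) and for the 7 members with peaks in both (red lines, named where past 1.5-fold). Sult3a1 lies at 0.78 in CAST females over males, 2.35 in CAST over B6 males and 3.06 in CAST over B6 females. The pairs share lists, so the panels are not independent.

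At the level of single regions, peaks of the 4 lists that overlapped by at least 1 bp were merged, which gave 56 regions at the members. Of these, 17 were called in all 4 lists (30.4%, against 42.1% of the regions in all gene windows), 8 in 3, 10 in 2 and 21 in 1 (37.5%, against 31.7%). In B6, 35 regions were called, of which 23 were called in both sexes, 6 in females only (17% of called regions in all gene windows were female-only) and 6 in males only (17%). In CAST, 48 were called, 27 in both sexes, 16 in females only (13.6% in all windows) and 5 in males only (20.9%). The female share of sex-only regions was thus 50% in B6 (95% Wilson interval 25.4 to 74.6%) and 76.2% in CAST (54.9 to 89.4%), where the same share over all gene windows was 50.1% and 39.4%. In CAST it was 64.3% without Sult3a1 (9 of 14 regions) and 33.3% with peaks of at least 3-fold enrichment alone (2 of 6). Neighbouring regions of 1 gene are not independent.

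Heights were compared in regions shared by both lists of a pair. Over all gene windows, the median female/male ratio of such regions was 0.969 in B6 and 0.886 in CAST. The median CAST/B6 ratio was 1.10 in males and 0.996 in females, so equal heights are not the middle of every comparison. Of 23 regions shared by the B6 sexes, 0 were at least 1.5-fold higher in females (1.35% in all windows) and 0 in males (2.5%). Of 27 shared by the CAST sexes, 6 were higher in females by this margin (1.18%), all of them at Sult3a1, and 1 in males (4.76%), at Sult5a1. Of 22 shared by the males of the strains, 2 were higher in CAST (6.33%), both at Sult3a1, and 1 in B6 (2.65%), at Sult1e1. Of 22 shared by the females, 3 were higher in CAST (6.56%), at Sult3a1 and Sult1a1, and 1 in B6 (5.15%), at Sult5a1.

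Sult1a1, the main phenol sulfotransferase (chr7:133816379-133819946, minus strand), carried similar amounts of H3K27ac in the 4 lists. It had 7 peaks over 5257 bp, 5 over 4789 bp, 6 over 5474 bp and 8 over 4923 bp, with a mean fold enrichment of 2.48, 2.46, 2.68 and 2.45. Promoter peaks covered 3105, 2238, 2872 and 2545 bp of this and distal peaks 2152, 2551, 2602 and 2378 bp. The region over its start (chr7:133818596-133820864) reached 17.8, 20.1, 18.7 and 20.2 times the floor, above every other member region in each list. Its female/male ratio was 1.13 (0.971 to 1.31) in B6 and 1.08 (0.927 to 1.26) in CAST, so neither interval excluded equal heights. All peaks of its window that lie over 8 kb downstream of the start fall in introns of the neighbouring gene Ccdc101 and cannot be assigned to Sult1a1 by position. This includes the region 8.47 kb downstream of the start that was 1.54-fold (1.21 to 1.97) higher in CAST than in B6 females, and the 2 regions called in CAST only.

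An intergenic region 4.50 kb upstream of Sult1a1 was called in the females of both strains and in neither male list. Its height was 9.36 in B6 females and 9.80 in CAST females, a ratio of 1.05 (0.842 to 1.30). The local background there was high, at 109 and 86.1 fragments, which raises the height a peak needs to be called. With a local background of 60 to 70 fragments, the lowest 5% of called peaks in the male lists already lay at or below 5.88 and 6.02 times the floor, so signal below those heights could go uncalled in males, and its absence there was not tested. An additional region 5.88 kb upstream was called in both B6 lists (6.37 and 7.70) and in neither CAST list. Among the 56 regions, 2 were female-only in both strains (1.22% of regions in all gene windows were) and 0 were male-only in both (2.29%). The sequence around the summit of the former region is shown because it is 1 of those 2. None of the 5 motifs searched was found in it, so it has no capitals.
Sult1a1 upstream region, chr7:133824300-133824599, minus strand: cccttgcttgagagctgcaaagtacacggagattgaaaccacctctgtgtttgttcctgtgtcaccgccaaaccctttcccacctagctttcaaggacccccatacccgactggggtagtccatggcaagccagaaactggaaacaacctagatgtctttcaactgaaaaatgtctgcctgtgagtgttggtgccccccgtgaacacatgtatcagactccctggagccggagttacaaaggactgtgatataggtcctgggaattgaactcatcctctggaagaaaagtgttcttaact

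Sult1b1, which sulfates thyroid hormones and small phenols (chr5:87942364-87967220, minus strand), had similar covered bases and heights in the 4 lists. It had 3 peaks over 4020 bp, 3 over 3408 bp, 2 over 3800 bp and 3 over 3399 bp, at a mean fold enrichment of 3.36, 3.37, 4.25 and 3.67. All but 1 of these peaks, a distal one of 310 bp in B6 males, lay near a transcript start. With peaks of at least 3-fold enrichment alone, the CAST/B6 ratio was 1.47 in males and 1.55 in females. The region at its start stood at 12.6, 12.5, 14.1 and 12.5 times the floor, and that in the intron 5.46 kb downstream, near another annotated start, at 8.93, 10.3, 10.1 and 9.51. Both were called in all 4 lists, and the ratios of their heights between sexes or strains lay between 0.892 and 1.16. The highest summits of the region at the start lay 1.65 to 1.78 kb downstream of it. In females a separate peak covered the start itself, at 8.34 in B6 and 9.86 in CAST.

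Sult1c2 (chr17:53968962-53985664, minus strand) had the same promoter region in all 4 lists and more distal peaks in CAST. Peaks covered 2838 bp (2 peaks) in B6 males, 2822 bp (2) in B6 females, 3663 bp (4) in CAST males and 4503 bp (5) in CAST females, at a mean fold enrichment of 5.81, 5.60, 5.04 and 3.93. The region at the start was at 11.5, 11.1, 12.4 and 11.3 times the floor, with a female/male ratio of 0.959 (0.788 to 1.17) in B6 and 0.917 (0.752 to 1.12) in CAST. Promoter bases were 1951, 2125, 1963 and 2106 bp and distal bases 887, 697, 1700 and 2397 bp. An intergenic region 7.61 kb upstream was called in both CAST lists (2.59 and 2.67 times the floor) and in neither B6 list. These are low peaks, and the lowest peaks called at the floor stood at 1.80 and 1.76 in the B6 lists. The CAST/B6 log2 ratio of covered bases was 0.37 in males and 0.67 in females, at the 84.0th and 92.9th percentiles of all genes. With peaks of at least 3-fold enrichment alone, the ratio was 1.00 in males as in females, so the excess in CAST rested on peaks of low enrichment. The region 12.9 kb downstream, over an exon, was lower in B6 females than in B6 males (3.42 against 4.85 times the floor, ratio 0.706, 0.504 to 0.984), and in CAST it stood at 4.28 in females and 5.12 in males (0.836, 0.605 to 1.15).

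Sult1d1, a sulfotransferase of catecholamines (chr5:87983670-87998052, minus strand), and Sult1e1, the estrogen sulfotransferase (chr5:88004993-88020636, minus strand), are neighbours, and Sult1b1 lies on the other side of Sult1d1. In the window of Sult1d1, 7, 8, 7 and 6 peaks covered 6807, 5283, 4769 and 3897 bp, at a mean fold enrichment of 3.03, 3.05, 3.61 and 3.02. Promoter peaks held 2029, 2161, 2667 and 1709 bp and distal peaks 4778, 3122, 2102 and 2188 bp. These amounts depend on the 2.5 kb limit. The intronic region 5.99 kb downstream counted as distal in B6 males (744 bp) and as promoter in CAST males (1245 bp). In females its peaks fell in both classes, with 480 promoter and 231 distal bp in B6 and 681 and 365 bp in CAST. The B6 lists were above the CAST lists and, within each strain, males above females, but no female/male or CAST/B6 ratio passed 1.5-fold. With peaks of at least 3-fold enrichment alone, the female/male ratio was 0.657 in B6 and 0.481 in CAST, both past the margin, and with a flank of 25 kb it was 1.01 in CAST. The highest summits of the merged region at the Sult1d1 start stood at 10.1, 7.70, 7.54 and 6.60 times the floor. They lay within 0.158 kb of the start, except in CAST females, where the summit lay 1.19 kb downstream and no peak was nearer. Close to that place a B6 female peak stood at 7.59 and a CAST male peak at 5.85. From the highest summits, the female/male ratio in B6 was 0.764 (0.610 to 0.955) and the CAST/B6 ratio in males 0.748 (0.594 to 0.939). The ratios of CAST females, 0.875 (0.674 to 1.13) to CAST males and 0.856 (0.663 to 1.10) to B6 females, compare different summits. The region between the genes, 4.56 kb upstream of Sult1d1, differed less, at 10.5, 9.89, 8.94 and 9.21. A region 19.2 kb downstream of the Sult1d1 start was called in both B6 lists (2.67 and 2.35) and in neither CAST list.

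Sult1e1 had more covered bases in females than in males in both strains, although it passed 1.5-fold in neither. Peaks covered 6135 bp (7 peaks) in B6 males, 7106 bp (10) in B6 females, 4854 bp (9) in CAST males and 6096 bp (10) in CAST females. The female/male log2 ratio was 0.21 in B6 and 0.33 in CAST, at the 85.0th and 94.4th percentiles of all genes. Both directions depended on the peaks kept. With peaks of at least 3-fold enrichment alone, the ratio of covered bases was 0.512 in B6 and 0.855 in CAST, and in the gene body without flanks it was 2.12 in CAST. The mean fold enrichment over its peaks was 3.29, 2.98, 3.30 and 2.98. Promoter peaks held 1055, 1412, 681 and 1202 bp and distal peaks, some of them at Sult1d1, 5080, 5694, 4173 and 4894 bp. The region just downstream of its start (chr5:88018810-88020071, over a coding exon), singled out here after its values were seen, was lowest in CAST males, at 4.90, 4.17, 2.47 and 3.62 times the floor. It was 0.505-fold (0.344 to 0.732) as high in CAST as in B6 males, while the female/male ratio was 0.851 (0.620 to 1.17) in B6 and 1.46 (0.978 to 2.21) in CAST.

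An intergenic region 7.10 kb upstream of Sult1e1 was called in the females of both strains (4.76 times the floor in B6 and 4.99 in CAST) and in neither male list. The local background at these peaks was 37.8 and 30.3 fragments. In the male lists, the lowest 5% of called peaks with a background of 30 to 40 fragments lay at or below 3.27 (B6) and 3.37 (CAST) times the floor, which is lower than the heights in females, but the background at this place in the male lists is not known. A region 10.1 kb upstream was called in all 4 lists, at 6.64, 7.75, 8.94 and 7.19. A region in an intron 8.81 kb downstream was called in all lists but B6 males (3.21, 2.70 and 3.51). The sequences of the female-only upstream region and of the region near the start are shown for these differences, with capitals at matches to the motifs TTGCNNAA (C/EBP type) in the former and TTCNNNGAA (STAT5 type) in the latter.
Sult1e1 upstream region, chr5:88027620-88027919, minus strand: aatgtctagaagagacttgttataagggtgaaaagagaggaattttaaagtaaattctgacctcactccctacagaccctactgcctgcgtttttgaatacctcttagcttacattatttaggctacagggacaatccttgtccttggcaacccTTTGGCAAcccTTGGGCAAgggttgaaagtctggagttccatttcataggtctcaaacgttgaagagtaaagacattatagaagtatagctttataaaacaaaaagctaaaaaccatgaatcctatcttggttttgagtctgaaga
Sult1e1 region near the start, chr5:88019452-88019751, minus strand: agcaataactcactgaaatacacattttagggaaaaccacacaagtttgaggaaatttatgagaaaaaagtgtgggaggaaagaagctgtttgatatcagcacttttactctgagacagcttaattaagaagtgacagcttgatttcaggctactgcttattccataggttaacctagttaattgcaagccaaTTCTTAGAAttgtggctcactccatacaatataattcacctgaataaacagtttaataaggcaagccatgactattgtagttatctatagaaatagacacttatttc

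**Figure D3:**
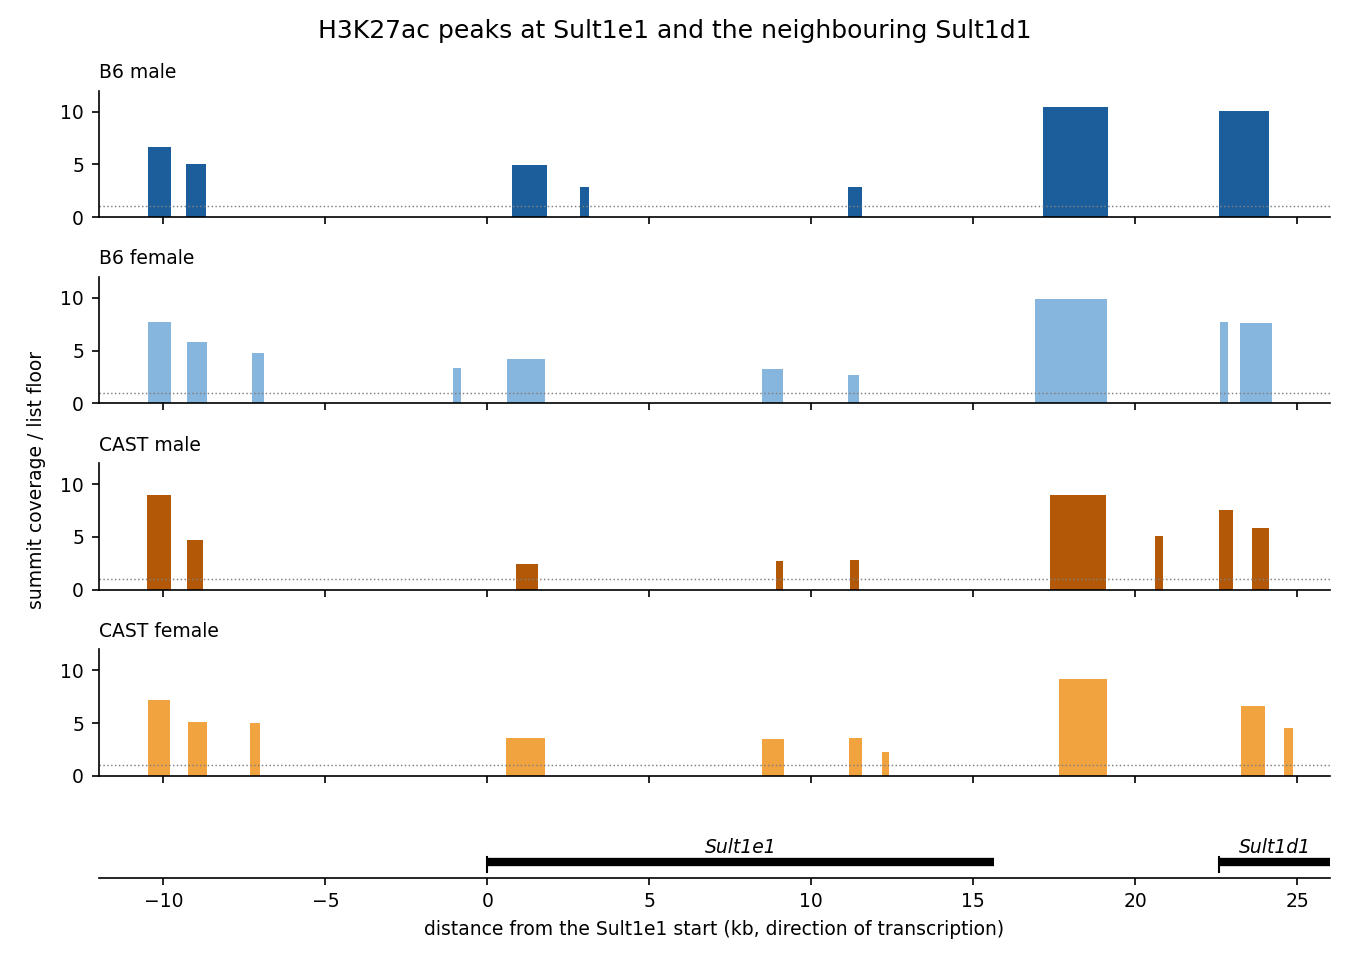
H3K27ac peaks at Sult1e1 and the start of Sult1d1 by distance from the Sult1e1 start in the direction of transcription (kb), 1 panel per list. Bars span the peaks, their height is the summit coverage over the floor of the list, and the dotted line marks a value of 1. The peak 7.10 kb upstream stands in both female panels (4.76 and 4.99) and in neither male panel.

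The hydroxysteroid sulfotransferases Sult2a1 (chr7:14381601-14422759, minus strand) and Sult2a2 (chr7:14318855-14364985, plus strand) had almost no peaks. Sult2a2 had none in any list. Sult2a1 had none in B6 males, B6 females or CAST males and 1 in CAST females, of 307 bp in an intron 26.9 kb from the start, at 2.85 times the floor. Neither gene had a peak within 2.5 kb of its start. Only uniquely mapped reads were kept by the authors, and these windows hold much repeated sequence. Of all 50-base words in the window, 58.1% at Sult2a1 and 40.3% at Sult2a2 occurred once in mm9, against 77.7 to 98.2% at the 7 other members. Within 2.5 kb of the start the shares were 44.6% and 45.6%. Of the repeated words, 93.3% at Sult2a1 and 72.5% at Sult2a2 had a further copy inside the Sult2a cluster. A unique word is a stricter requirement than a unique read pair. The part of mappability in the missing peaks was not tested, and they are no measurement of low H3K27ac.

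Other genes of the cluster differed in whether they had peaks. Sult2a4 and Sult2a5 had none in any list, with 74.4% and 72.6% unique words in their windows. Sult2a6 had 0 peaks in B6 males, 3 (1260 bp) in B6 females, 0 in CAST males and 6 (3075 bp) in CAST females, with heights of up to 3.37 and 4.81 times the floor. Both female lists therefore had peaks and neither male list did. Sult2a3 had 2 peaks (1540 bp) in CAST females and none in the other lists. Unique words made up 86.8% of the Sult2a6 window and 79.7% of the Sult2a3 window. The gene 2810007J24Rik (Sult2a8) had peaks in every list, over 10999, 7469, 9242 and 6234 bp, with males above females in both strains (ratios under 1.5-fold), and 81.0% unique words.

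Sult3a1, the amine sulfotransferase (chr10:33583741-33599322, plus strand), differed most between the lists. It had 2 peaks over 994 bp, 2 over 1042 bp, 6 over 5052 bp and 13 over 8672 bp. Both CAST lists were above both B6 lists, and within CAST the female list was above the male list. That order of the CAST sexes depended on the peaks and the window, since the female/male ratio was 1.43 with a flank of 25 kb, 1.48 with −log10 q of at least 5, both short of the margin, and turned to 0.590 with peaks of at least 3-fold enrichment alone. Covered bases were 5.08-fold higher in CAST than in B6 males (log2 ratio 2.35, the 99.6th percentile of all genes) and 8.32-fold higher in CAST than in B6 females (3.06, the 99.8th percentile). Without flanks the CAST/B6 ratio was 3.17 in males, and in females it ranged from 5.23 with a flank of 25 kb to 25.7 with −log10 q of at least 5. The female/male ratio was 1.05 in B6 (log2 0.07, the 70.2nd percentile, and 0.756 without flanks) and 1.72 in CAST (0.78, the 98.6th percentile). Counted from the GENCODE start, promoter bases were 625, 751, 1012 and 3380 bp, and distal bases 369, 291, 4040 and 5292 bp. This split depends on the 2.5 kb limit, because the peak 3.21 kb upstream was counted as promoter in CAST females (1437 bp), where its edge lay just inside the limit, and as distal in CAST males (1403 bp) and B6 females (291 bp).

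The highest peak at Sult3a1 stood at 2.18, 2.78, 5.62 and 14.5 times the floor. Only 1 of its 13 regions was called in all 4 lists (chr10:33585558-33586748, over a coding exon near the start), and there the heights were 2.18, 2.30, 5.62 and 8.73. The CAST/B6 ratio was 2.58 (1.77 to 3.82) in males and 3.80 (2.69 to 5.47) in females, and the female/male ratio was 1.06 (0.670 to 1.67) in B6 and 1.55 (1.20 to 2.02) in CAST. The intergenic region 3.21 kb upstream was called in B6 females (2.78), CAST males (4.95) and CAST females (10.0), and the intronic region 9.10 kb downstream in B6 males (1.96), CAST males (5.34) and CAST females (9.27).

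In CAST, 6 regions of Sult3a1 were called in both sexes and all 6 were higher in females. The female/male ratio was largest 8.53 kb upstream, where the height was 5.46 in males and 14.5 in females (2.66, 2.09 to 3.40). It was 2.03 (1.56 to 2.66) in the region 3.21 kb upstream, 2.23 (1.70 to 2.94), 1.64 (1.25 to 2.17) and 1.73 (1.34 to 2.26) in the introns 5.83, 6.70 and 9.10 kb downstream, and 1.55 in the region called in all lists. The lower bounds of all 6 intervals lay above 1. By fold enrichment, which divides by the local background, only the regions 8.53 kb upstream (2.92 against 2.55) and 5.83 kb downstream (2.25 against 2.07) were higher in females. The regions 3.21 kb upstream (2.61 against 3.02) and 2.41, 6.70 and 9.10 kb downstream (2.11 against 2.95, 1.97 against 2.33 and 2.61 against 2.75) were lower in females on that scale. A further 7 regions were called in CAST females only, the strongest of them 9.59 kb upstream (13.5 times the floor) and 1.23 kb downstream of the start (10.2).

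The local background at these peaks moved with the result. Its median was 18.4 fragments in B6 males and 18.7 in B6 females, which is the floor of those lists, 35.7 in CAST males and 69.0 in CAST females. Over all peaks of a list, this background rose with the amount of peak signal in the surrounding 10 kb (Spearman correlation 0.858 to 0.871 across 79858 to 90222 peaks of the same list). That signal includes the peak itself, whose height was solved together with its background, so part of the correlation is built in. The fold enrichment, which divides by it, differed less between the lists, with a mean over peak bases at Sult3a1 of 2.04, 2.36, 2.75 and 2.43. At the floor, the lowest 5% of called peaks in the B6 lists lay at or below 1.96 and 1.93 times the floor, which is below the heights in CAST males (4.56 to 5.62). The part of the local background in these differences was not tested, and the input was not analysed here. Unique words made up 83.0% of the window.

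RefSeq places the start of Sult3a1 6213 bp upstream of the GENCODE start used here, and no peak of any list overlaps the 300 bases around it. From the RefSeq start, the peaks 8.53 and 3.21 kb upstream would count as promoter. Those downstream of the GENCODE start would count as distal. The promoter and distal bases given above therefore hold for the GENCODE start alone. Sequences from mm9 around the highest summit are shown for the region with the largest ratio among the 6 called in both CAST sexes. They are also shown for the region called in CAST females 1.23 kb downstream of the start and for the region called in all lists. In the region of all lists the highest summit is that of CAST females, and the summits of the other lists lie outside the bases shown. Capitals mark TTGCNNAA (C/EBP type) in the upstream region and TTGCNNAA, TTCNNNGAA and ATTGAT (HNF6 type) in the CAST female region, on either strand. The bases shown for the region of all lists have no match. All these sequences are of the reference strain, and CAST bases were not used here.
Sult3a1 upstream region, chr10:33575079-33575378, plus strand: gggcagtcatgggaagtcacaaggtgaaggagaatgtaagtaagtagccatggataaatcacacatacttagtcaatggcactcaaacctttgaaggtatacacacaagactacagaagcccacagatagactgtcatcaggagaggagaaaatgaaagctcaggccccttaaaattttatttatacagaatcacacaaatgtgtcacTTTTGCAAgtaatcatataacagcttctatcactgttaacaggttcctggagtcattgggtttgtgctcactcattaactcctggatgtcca
Sult3a1 CAST female region, chr10:33584952-33585251, plus strand: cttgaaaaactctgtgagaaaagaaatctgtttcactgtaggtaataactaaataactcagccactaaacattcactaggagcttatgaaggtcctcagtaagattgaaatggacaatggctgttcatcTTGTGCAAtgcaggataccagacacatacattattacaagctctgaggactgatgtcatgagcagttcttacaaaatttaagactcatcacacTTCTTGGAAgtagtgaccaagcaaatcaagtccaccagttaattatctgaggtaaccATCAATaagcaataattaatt
Sult3a1 region of all lists, chr10:33585530-33585829, plus strand: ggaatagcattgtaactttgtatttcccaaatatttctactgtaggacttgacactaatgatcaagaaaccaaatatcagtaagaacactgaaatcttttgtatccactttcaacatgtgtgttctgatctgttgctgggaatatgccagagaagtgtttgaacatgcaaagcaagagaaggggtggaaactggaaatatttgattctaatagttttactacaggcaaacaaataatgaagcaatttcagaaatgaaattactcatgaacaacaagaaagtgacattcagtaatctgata

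**Figure D4:**
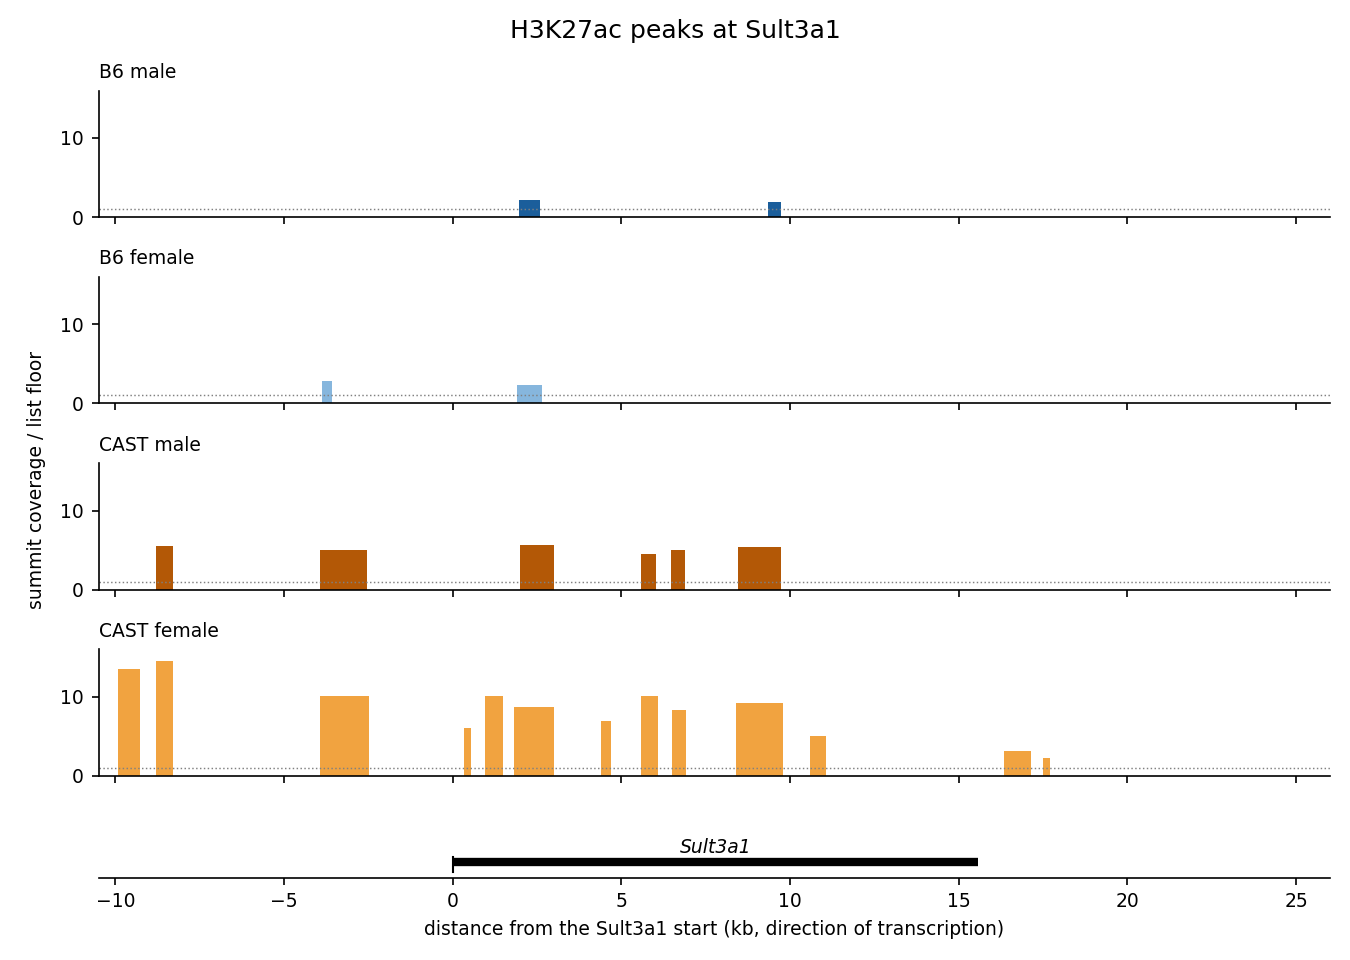
H3K27ac peaks at Sult3a1 by distance from its GENCODE start (kb), 1 panel per list on the same scale. Bars span the peaks, their height is the summit coverage over the floor of the list, and the dotted line marks a value of 1. The B6 lists have 2 peaks each at 1.96 to 2.78, CAST males 6 at 4.56 to 5.62 and CAST females 13 at 2.32 to 14.5.

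The adjacent sulfotransferase gene Gm4794 (Sult3a2), which is no member, showed the same order between the strains. Its peaks covered 2135, 1161, 7621 and 10369 bp, and the highest stood at 5.83, 7.17, 18.1 and 34.3 times the floor. Of 11 other sulfotransferase genes, including this one, 7 had a peak in B6, 7 in CAST, 6 in males and 8 in females. Covered bases leaned to females at 1 of 7 in B6 and 2 of 7 in CAST (3.69% and 1.88% of all genes) and to males at 1 of 7 and 0 of 7 (4.93% and 7.98%). They leaned to CAST at 1 of 6 in males and 3 of 8 in females (9.86% and 9.46%) and to B6 at 2 of 6 and 2 of 8 (4.76% and 10.0%). The 11 genes include the pseudogene Sult2a7, with peaks over 1185, 1527, 328 and 683 bp. It is among those leaning to B6 in each sex, whereas the shares are of protein-coding genes alone. Of the repeated 50-base words, the share with a further copy inside the span of both windows was 8.93% at Sult3a1 and 36.1% at Gm4794.

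Sult5a1, an orphan member of the family (chr8:125666747-125682215, minus strand), was lowest in CAST females. It had 6 peaks over 5292 bp, 5 over 4504 bp, 4 over 3961 bp and 3 over 2431 bp, at a mean fold enrichment of 3.02, 2.86, 3.20 and 4.18. Promoter peaks held 1664, 2331, 1407 and 0 bp and distal peaks 3628, 2173, 2554 and 2431 bp. Covered bases in CAST females were 0.614 times those in CAST males (log2 ratio −0.70, the 5.98th percentile of all genes) and 0.540 times those in B6 females (−0.89, the 4.80th percentile). With peaks of at least 3-fold enrichment alone, the ratio to B6 females turned to 1.38 and that to CAST males to 1.00. With a flank of 25 kb the ratios were 0.746 and 0.682, and neither lean was kept. Its window also holds Gm20388, whose annotation spans the same bases, and Cpne7.

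The region over the Sult5a1 start (chr8:125681757-125683420) was called at 11 times the floor in B6 males, 9.52 in B6 females and 8.72 in CAST males, and not in CAST females. Its female/male ratio in B6 was 0.865 (0.703 to 1.06) and its CAST/B6 ratio in males 0.792 (0.639 to 0.982). The region 5.30 kb upstream was called in all lists, at 13, 13.5, 12.8 and 8.08. CAST females were again lowest, with a ratio of 0.630 (0.506 to 0.783) to CAST males and 0.600 (0.483 to 0.742) to B6 females. By fold enrichment the same region ran the other way, at 4.21, 4.33, 4.31 and 4.62, with CAST females highest. Of the weaker regions, that 12.5 kb downstream was also called in every list but CAST females (2.23, 2.62 and 2.36), whereas that 15.9 kb downstream was called at 2.40, 2.46 and, in CAST females, 3.09. The local background at the region 5.30 kb upstream was 56.0, 57.5, 52.2 and 28.6 fragments. At the start it was 68.2, 73.3 and 64.4 fragments in the lists with a peak, and in CAST females it is not known there. The lowest 5% of called peaks in CAST females lay at or below 3.62 times the floor with a background of 30 to 40 fragments and 6.36 with one of 60 to 70, so lower signal at the start could have gone uncalled.

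The promoter of Sult5a1 is shown because its peak was called in 3 lists and not in CAST females. It is taken from RefSeq (250 bases before to 50 after the start, table of build GRCm38.p6) and was placed on mm9 by exact match, and no motif searched was found in it.
Sult5a1 promoter, chr8:125682131-125682430, minus strand: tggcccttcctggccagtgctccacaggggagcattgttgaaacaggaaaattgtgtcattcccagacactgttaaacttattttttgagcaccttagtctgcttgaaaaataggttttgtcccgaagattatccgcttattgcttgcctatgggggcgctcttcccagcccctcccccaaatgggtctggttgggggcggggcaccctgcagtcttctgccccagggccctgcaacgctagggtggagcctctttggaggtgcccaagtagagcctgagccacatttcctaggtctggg

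**Figure D5:**
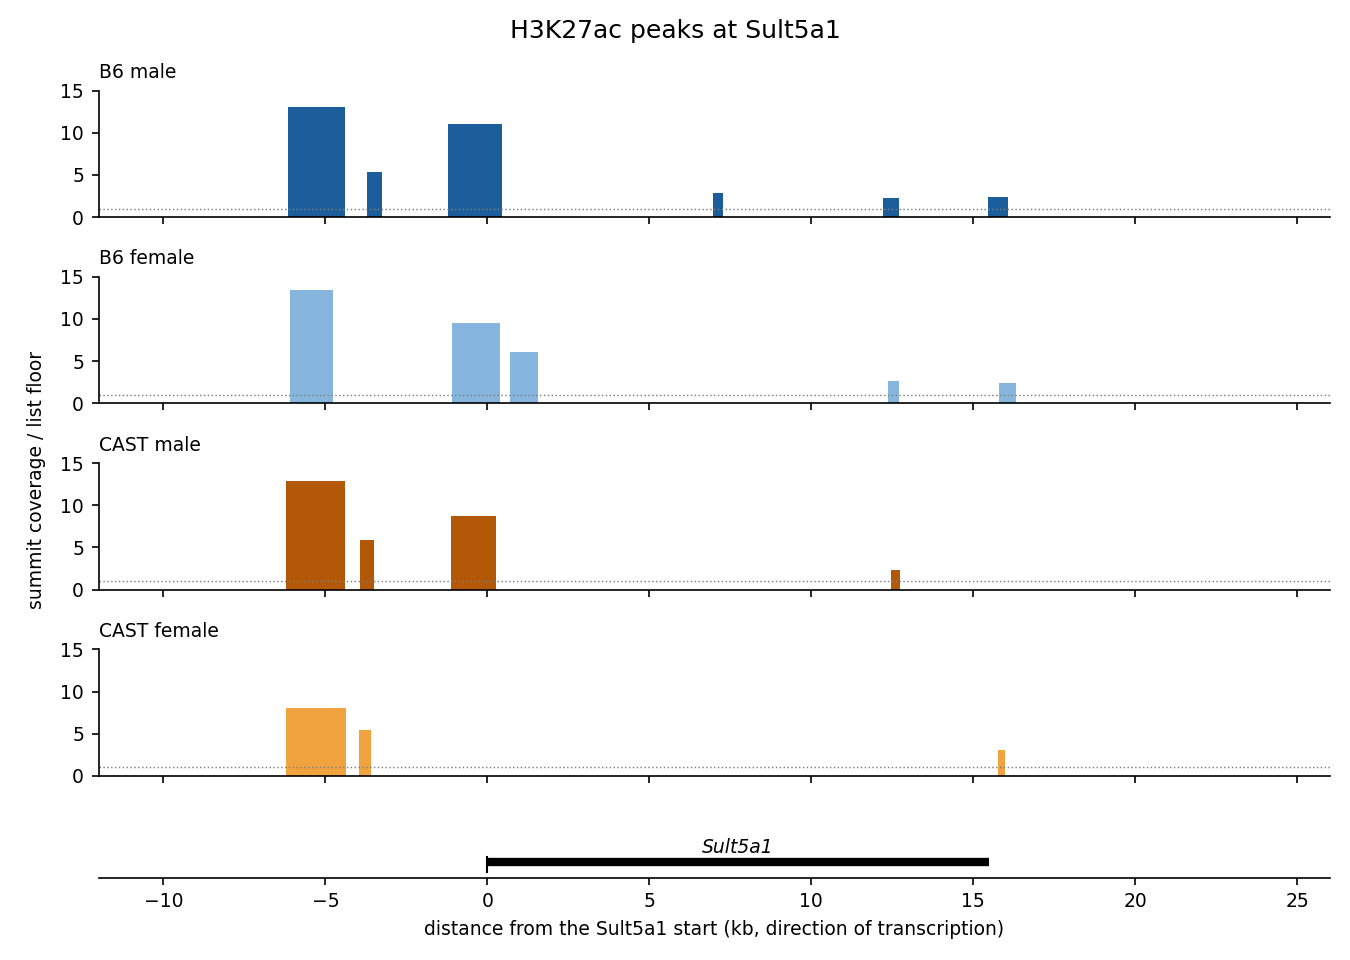
H3K27ac peaks at Sult5a1 by distance from its start in the direction of transcription (kb), 1 panel per list on the same scale. Bars span the peaks, their height is the summit coverage over the floor of the list, and the dotted line marks a value of 1. The peak at the start is present at 11, 9.52 and 8.72 and absent in CAST females, where the peak 5.30 kb upstream is also the lowest (8.08).

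Genes that supply the sulfate donor or handle its products were compared in the same way. All 8 (Papss1 and Papss2, which make PAPS, the transporters Slc35b2, Slc35b3 and Slc26a1, the phosphatases Bpnt1 and Impad1, and the sulfite oxidase gene Suox) had a peak within 2.5 kb of a start in every list. None leaned to either sex in either strain, where 1.88 to 7.98% of all genes did. Impad1 leaned to B6 in males (2082 against 1292 bp, 1 of 8, against 4.76% of all genes) and Suox to B6 in females (2319 against 1520 bp, 1 of 8, against 10.0%), and none leaned to CAST. With 8 genes, such counts do not set them apart from other genes. The longest peak coverage was at Papss2, with 12978, 12174, 12795 and 11670 bp.

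The sequences were searched on both strands for TTCNNNGAA (STAT5 type), ATTGAT (HNF6 type), TGTTTAC (FOXA type), TTGCNNAA (C/EBP type) and CAAAGTCCA (HNF4A type). RefSeq promoters were at hand for 7 of the 9 members, and 8 promoters were placed on mm9. Each motif was found in 1 of the 8, against 8.30, 7.54, 3.65, 10.8 and 0.475% of all 32851 promoters in that order. In the 300 bases around the highest summit of each of the 56 regions, the motifs were found in 7, 7, 4, 10 and 0. These are 12.5, 12.5, 7.14, 17.9 and 0%, against 8.95, 8.13, 4.44, 11.4 and 0.558% of all 119336 regions. A match describes the letters only, and gives no evidence of binding.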

How the data were processed

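H3K27ac ChIP-seq of 20 livers and 4 inputs was deposited as 1 peak list per group. Per the study's methods, the authors merged the reads of the 5 livers of a group, aligned them with Bowtie2 (B6 to mm9, CAST to a CAST genome with coordinates converted to mm9), kept unique reads, called peaks with MACS2 and removed blacklisted peaks. Tool names and build are also in the submitters' processing notes. The deposited lists hold a score, a fold enrichment (a ratio), the −log10 p-value and the −log10 q-value of each peak, with the summit as another column. Peak names hold a single library's code in each list, but the lists were treated as merged, following the methods. Reads per liver are unknown here.

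Windows, transcript starts and sequences came from NCBIM37 (mm9) and GENCODE vM1. Summit coverage and local background were solved from the deposited fold enrichment and p-value under the MACS2 formulas, and the coverage came out whole (within 0.1) for 99.97 to 99.99% of the peaks checked (−log10 p above 8, coverage under 150). The study's methods state that peaks were called over the input samples as background. Whether the background solved here came from the input was not tested. The solver and the window counts were tested on simulated data. Python 3.11.15, numpy 2.4.6, pandas 2.3.3, scipy 1.17.1, statsmodels 0.14.6 and matplotlib 3.10.9 were used. All 9 genes are named, and regions by the score's percentile, at most 3 per class and gene, except 1 region near the Sult1e1 start, chosen after its values were seen. Alternatives changed the flank, the peaks kept, their merging, the lean threshold, the promoter distance and the overlap. The members, lists and alternatives were chosen with earlier results of these data known, and 1 alternative (without Sult3a1) was added after the values were seen. With 1 pooled list per group, no test was made.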

Additional observations from a re-analysis of the deposited data

Results flagged for a closer look

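At Sult1c2 the difference in covered bases between females and males had opposite signs in the strains, −16 bp in B6 and 840 bp in CAST. The B6 value is close to 0 (a female/male ratio of 0.994), and with peaks of at least 3-fold enrichment alone the ratio was 0.993 in CAST, so the signs no longer differed. With 1 list per group the difference between the strains was not tested.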

How the results depend on the processing

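No paired analysis was possible because each group is 1 pooled list with no replicate numbers, and no liver could be left out. A family ratio or count was taken as unchanged within 1.5 times its value, and a share within its Wilson interval. Of 92 alternative values of the family results, 76 were unchanged. Members leaning to CAST females over males, 1 in the report, were 2 without flanks (Sult1e1 and Sult3a1) and 0 with a flank of 25 kb, with −log10 q of at least 5, with fold enrichment of at least 3, at a lean of 2 times and without Sult3a1. Members leaning to CAST males, also 1, were 0 with a flank of 25 kb and at 2 times, and 3 with fold enrichment of at least 3 (Sult1a1, Sult1d1 and Sult3a1). Members leaning to CAST in females, 2 in the report, were 1 with −log10 q of at least 5, at 2 times and without Sult3a1. With fold enrichment of at least 3 they were again 2, but Sult1b1 (ratio 1.55) stood in place of Sult1c2 (1.00). Members leaning to CAST in males, 1 in the report, were 0 without Sult3a1. Fold enrichment of at least 3 also gave 2 members leaning to males in B6 (Sult1d1 and Sult1e1), a female/male ratio of 0.705 in CAST in place of 1.11 and a female share of 33.3% of sex-only regions in CAST (2 of 6). That limit divides by the local background, and under it the female/male ratio of Sult3a1 in CAST turned to 0.590 and the CAST/B6 ratio of Sult5a1 in females to 1.38. The CAST/B6 ratio of Sult3a1 stayed above 1 in every alternative that left peaks in both lists, from 3.17 to 5.52 in males and from 5.23 to 25.7 in females. Promoter peaks within 1 kb numbered 7, 11, 7 and 8 in the 4 lists, in place of 11, 15, 13 and 15. The other causes were not tested. The lists give no depth per liver, so a missing peak limits signal only relative to the local background.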
